A study of Homo sapiens with 11 samples.

Results

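The AP-1 and immediate early genes examined here are FOS, FOSB, FOSL1, FOSL2, JUN, JUNB, JUND, EGR1, IER2 and MYC. They were chosen by symbol, and all 10 were found among the 26485 gene symbols of both count tables. The RNA came from Caki-1-SR clone 1, a human clear cell renal cell carcinoma (ccRCC) line derived from a skin metastasis and made resistant to the kinase inhibitor sunitinib. The cells were cultured in 1 µM sunitinib, so this drug is part of the background of both groups. Treated cells received the optimized drug combination (ODC) for 2 h or for 24 h. It joins Rapta-C, which contains ruthenium, at 2 µM, the EGFR kinase inhibitor erlotinib at 1 µM, the diabetes drug metformin at 1 µM and parthenolide, a sesquiterpene lactone from feverfew, at 5 µM. Control cells (CTRL) received none of these 4 drugs and are described as untreated or as sham-treated with DMSO. There were 2 CTRL and 3 ODC libraries at 2 h, and 3 CTRL and 3 ODC libraries at 24 h, each time with its own controls. All libraries come from 1 resistant subline, and whether replicates were separate cultures is not given in the labels, so p-values measure only the spread between these libraries. In such bulk RNA, fewer cells making a transcript and less of it per cell cannot be told apart.

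Immediate early genes are transcribed within minutes of a stimulus such as a growth factor or stress, from factors that are already present in the cell, and many of their transcripts are short-lived. The FOS and JUN proteins pair through leucine zippers to form the transcription factor AP-1, whose composition differs with the members that a cell makes. EGR1 is a zinc finger transcription factor, IER2 a small nuclear protein and MYC a basic helix-loop-helix factor that pairs with MAX. Signaling from EGFR through ERK and from stress through JNK is known to feed into these genes.

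The promoters of EGR1 and JUND are shown because EGR1 had the largest fitted change of the 10 genes and JUND was the member whose treated libraries all lay above the controls at 2 h. Each run holds the 250 bases before the start of the gene, 5′ to 3′ on the gene's strand, from RefSeq (GRCh38.p14), with motif matches in capitals. EGR1 lies on the plus strand (chr5:138465229-138465478) and JUND on the minus strand (chr19:18281623-18281872).
EGR1: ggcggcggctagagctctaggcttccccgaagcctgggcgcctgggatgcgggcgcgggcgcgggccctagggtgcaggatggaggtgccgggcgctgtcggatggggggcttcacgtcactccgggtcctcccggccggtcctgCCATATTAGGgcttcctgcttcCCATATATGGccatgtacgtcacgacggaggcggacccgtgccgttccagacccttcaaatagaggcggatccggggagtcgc
JUND: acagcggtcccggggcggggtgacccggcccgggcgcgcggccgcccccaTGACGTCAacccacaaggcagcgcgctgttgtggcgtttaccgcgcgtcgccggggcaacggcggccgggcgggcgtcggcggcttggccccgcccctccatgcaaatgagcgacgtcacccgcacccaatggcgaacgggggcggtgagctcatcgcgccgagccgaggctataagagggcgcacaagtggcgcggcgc
The capitals in EGR1 mark 2 CArG boxes, the motif that serum response factor binds, and those in JUND mark TGACGTCA, a cAMP response element to which ATF and AP-1 dimers can bind. A CArG box occurred in 1.16% of the 35116 promoters of this table and TGACGTCA in 1.65%, both strands counted. RefSeq promoters were found for 8 of the 10 genes. In the other 6 of these, FOS, FOSB, FOSL2, JUN, JUNB and IER2, none of these letters was found in the window, nor was TGANTCA, GCGTGGGCG, CCGGAAGT or CACGTG in any of the 8. These last motifs occurred in 6.57%, 0.720%, 3.42% and 6.34% of all promoters. Matches were exact and limited to these 250 bases, so sites farther upstream or with other letters were not searched.

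Libraries held 25782895 to 31118349 counts (2 h) or 17785229 to 20882856 counts (24 h). A floor of 3 counts was thus worth 0.0942 to 0.113 CPM, counts scaled to a common library size, in the 2 h libraries and 0.146 to 0.167 CPM in the 24 h libraries, for counting error only. Levels are given as CPM scaled by the TMM method. Among 10 renal epithelial and ccRCC markers, 8 or 9 were above the floor in each library, with PAX8 between 444 and 893 CPM. PAX2 and CA9, however, did not exceed 0.151 and 0.0486 CPM. CTRL replicate 1 at 2 h stood apart. It held the fibroblast gene COL3A1 at 40.8 CPM, against at most 0.194 CPM in the other 10 libraries, DCN at 2.75 against at most 0.108 CPM and LUM at 2.45 against at most 0.129 CPM. All 5 fibroblast and all 4 endothelial markers were above the floor in this library, with sums of 278 CPM and 1.24 CPM, against 61.2 to 163 CPM and 0 to 0.207 CPM in the others. The fibroblast list includes COL1A1, which was at 61.0 CPM or more in every library. The renal marker EPCAM was also highest in CTRL replicate 1 at 2 h, at 3.77 CPM against at most 0.871 CPM elsewhere. Its log2 fold change at 2 h was -1.66 (standard error 0.58), and -0.15 without that library. The 5 immune markers summed to between 5.81 and 16.4 CPM in a library, mostly from CD68. The part of these markers in the results below was not tested, and the fitted values at 2 h are given with and without CTRL replicate 1.

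At 2 h the levels of most of these genes were spread widely within CTRL and within ODC, and the groups overlapped for 9 of the 10. In 8 of the 10 genes the highest libraries were the same pair, CTRL replicate 1 and ODC replicate 2, an order that 9.46% of all genes tested shared. Between the highest and the lowest of the 5 libraries, 5 members (FOS, JUN, JUNB, EGR1 and IER2) differed over 3-fold, which 4.85% of all genes tested did, and the median gene differed 1.31-fold. No member passed an adjusted p of 0.05 in the quasi-likelihood test of edgeR (Benjamini-Hochberg adjustment), in DESeq2 or the likelihood ratio test, and in the edgeR test 0% of the 13332 genes did. Of all these genes DESeq2 called 1 and the likelihood ratio test 5. JUND was the single member with an unadjusted p under 0.05, a limit that 2.34% of all genes passed. It was also the single member whose groups did not overlap, which held for 15.5% of all genes. The fitted log2 fold change was above 0 for 8 members and below 0 for 2, and its median was 0.15 for the members and -0.0060 for all genes. Where CTRL replicate 1 and ODC replicate 2 were the highest libraries, omitting the former raises the value and omitting the latter lowers it. Without ODC replicate 2, EGR1 was at -2.02, MYC at -0.37, JUNB at -0.18 and IER2 at -0.0092. In 9 members the sign reversed when some single library was omitted, and only JUND kept it. Without CTRL replicate 1, which left 1 CTRL library, all 10 values were above 0, with a median of 0.90 beside 0.011 for all genes. No member passed an adjusted p of 0.05 in that fit, and 2, FOS and JUN, had an unadjusted p under 0.05, where 2.51% of the 13532 genes did.

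**Figure D1:**
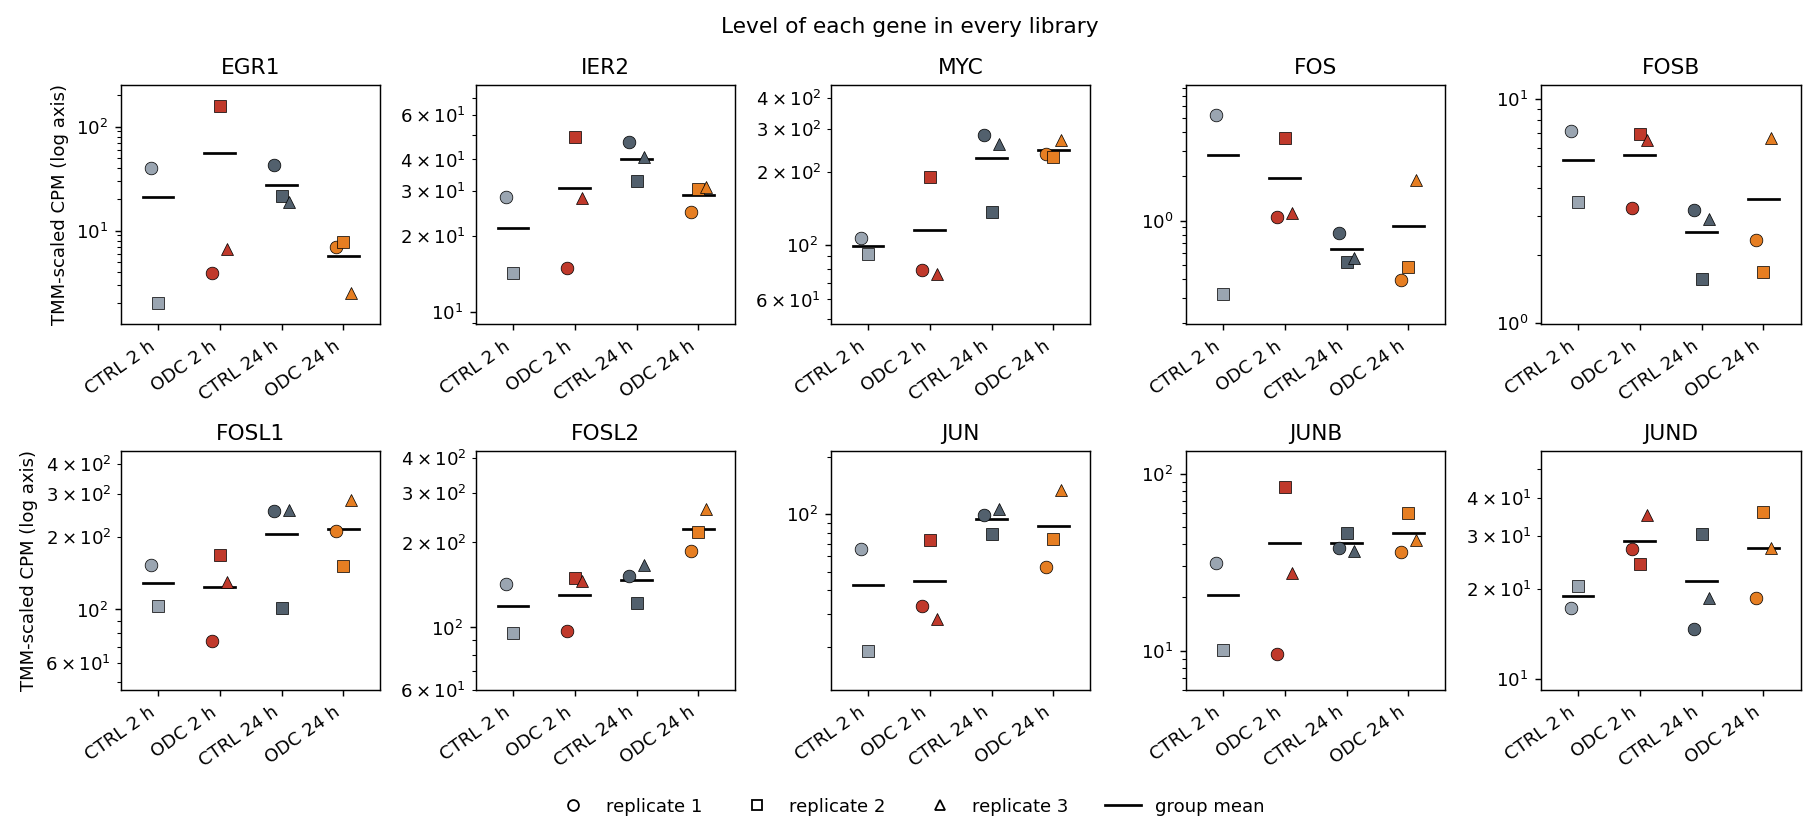
Level of each gene in all 11 libraries, as TMM-scaled CPM on a log axis, by group, with the replicate given by the shape of the point and the group mean by a line. EGR1 ran from 2.00 to 158 CPM at 2 h, and at 24 h its 3 ODC libraries lay below its 3 CTRL libraries.

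The EGR1 gene spans 138465479 to 138469303 of chromosome 5 (hg38, GENCODE release 44). Its RNA was measured at 39.8 and 2.00 CPM in CTRL replicates 1 and 2, and at 3.86, 158 and 6.61 CPM in ODC replicates 1 to 3. The lowest value was a CTRL and the highest an ODC library, 79.1-fold apart, and the groups overlapped. The biological coefficient of variation (BCV) fitted for EGR1, the relative spread between replicates beyond counting error, was 1.04, against a median of 0.125 over all genes, and 0.0075% of genes had a larger one. Its log2 fold change was 1.40 with a standard error (SE) of 1.57 (edgeR adjusted p = 1). It was -2.02 without ODC replicate 2, 0.48 without CTRL replicate 2, and 4.81 without CTRL replicate 1, where the adjusted p was 0.999 and 1 CTRL library remained.

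IER2, which encodes a nuclear regulator of transcription, had the same pair of highest libraries, over a smaller range. It was at 28.6 and 14.3 CPM in CTRL and at 14.8, 49.3 and 28.2 CPM in ODC replicates 1 to 3, with a log2 fold change of 0.51 (SE 0.47). Without ODC replicate 2 this was -0.0092, and without CTRL replicate 1 it was 1.11. MYC was steadier in CTRL, at 106.7 and 92.5 CPM. In the treated cells it was at 79.2, 190.3 and 75.9 CPM, so that ODC replicate 2 lay above and the other treated libraries below both controls. The log2 fold change of MYC was 0.19 (SE 0.37) with all libraries, -0.37 without ODC replicate 2 and 0.31 without CTRL replicate 1.

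Within the FOS family, FOS itself was low, though above the floor in every library. It was at 5.24 and 0.315 CPM in CTRL (139 and 9 counts) and at 1.07, 3.64 and 1.14 CPM in ODC (34, 113 and 33 counts). Both CTRL values lay outside the range of the treated ones, 1 above and 1 below. The log2 fold change of -0.52 (SE 0.91) became 2.61 without CTRL replicate 1, with an unadjusted p of 0.0218 and an adjusted p of 0.999. FOSB, a close relative, was at 7.20 and 3.47 CPM in CTRL and at 3.26, 6.93 and 6.57 CPM in ODC (log2 fold change 0.049, SE 0.39). FOSL1 encodes FRA-1, which lacks the transactivation domain of FOS. It was at 153 and 104 CPM in CTRL and at 74.0, 167 and 129.8 CPM in ODC, a log2 fold change of -0.074 (SE 0.31). FOSL2, which encodes FRA-2, was at 143 and 95.8 CPM in CTRL and at 96.9, 149 and 145 CPM in ODC (log2 fold change 0.11, SE 0.22). In all 4 genes the groups overlapped. Without CTRL replicate 1, the log2 fold changes of FOSB, FOSL1 and FOSL2 were 0.68, 0.25 and 0.44.

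Of the JUN family, JUN and JUNB again had CTRL replicate 1 and ODC replicate 2 as the highest libraries, while JUND did not. JUN was at 65.8 and 19.1 CPM in CTRL and at 32.9, 73.2 and 28.3 CPM in ODC (log2 fold change 0.057, SE 0.54). JUNB, often a weaker activator than JUN, was at 31.2 and 10.1 CPM in CTRL and at 9.54, 84.2 and 27.5 CPM in ODC, a log2 fold change of 0.95 (SE 0.80). Without CTRL replicate 1 these became 1.23 for JUN and 1.99 for JUNB, and without ODC replicate 2 they were -0.49 and -0.18. JUND is commonly the JUN gene with the steadiest expression. It was at 17.2 and 20.5 CPM in CTRL and at 27.0, 24.2 and 35.2 CPM in ODC, so each treated library was above both controls. Its log2 fold change was 0.60 (SE 0.17), for an unadjusted p of 0.00905 and an adjusted p of 1 (edgeR). Leaving out each library in turn moved it between 0.43 and 0.73, with 0.49 and an unadjusted p of 0.0530 without CTRL replicate 1. The BCV of JUND was 0.146, a value that 37.7% of genes exceeded.

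**Figure D2:**
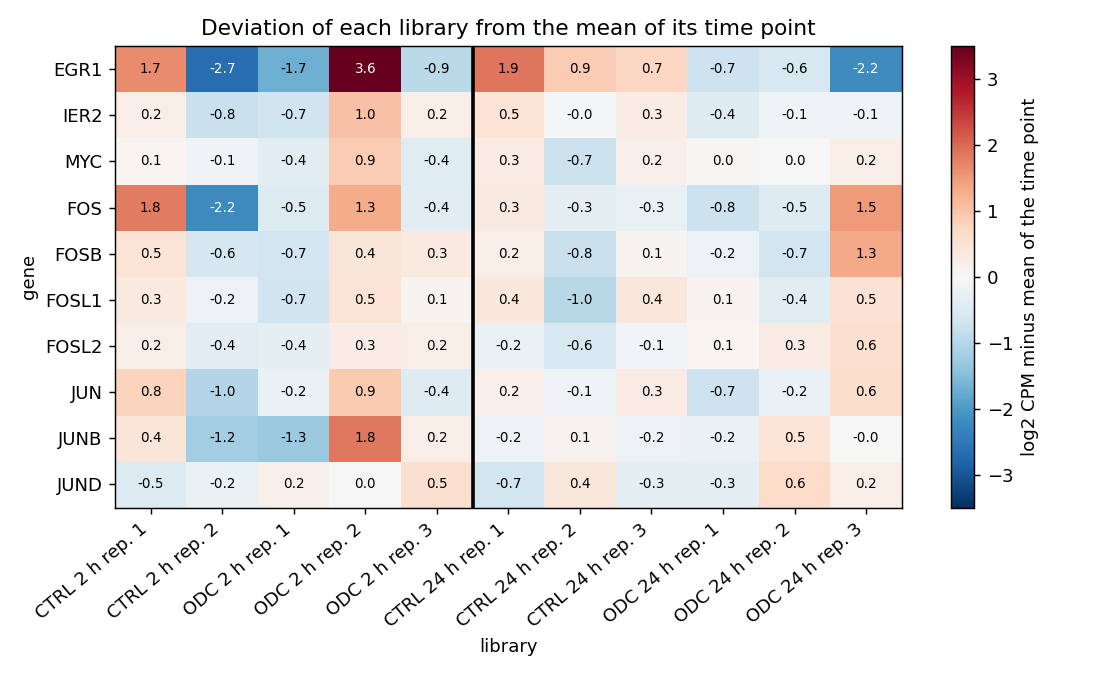
Deviation of each library (columns) from the mean of its time point for each gene (rows), in log2 CPM, with red above and blue below the mean. CTRL replicate 1 and ODC replicate 2 were the highest libraries at 2 h in 8 of the 10 genes, with JUND and FOSL2 as the exceptions. At 24 h EGR1, IER2 and FOSL2 separated the groups, as 17.9% of all genes tested did.

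At 24 h the 3 treated libraries all lay below the 3 controls for EGR1 and IER2, and all above them for FOSL2. None of the 10 members passed an adjusted p of 0.05 in the quasi-likelihood test of edgeR, which 0.189% of the 12689 genes tested did (24 genes, and 2 to 70 with any single library omitted, 2 without CTRL replicate 1 and 70 without ODC replicate 3). Of the 10, 7 had a fitted log2 fold change above 0 and 3 below, with a median of 0.16, where all genes had a median of 0.00089. With an unadjusted p under 0.05 there were 3 members, EGR1, IER2 and FOSL2, where 12.2% of all genes passed, and the same 3 had groups that did not overlap, where 17.9% of all genes did. DESeq2 and edgeR's likelihood ratio test each called EGR1 and FOSL2, and of all 12689 genes they called 378 (2.98%) and 401 (3.16%). A fit that took CTRL and ODC libraries of adjacent numbers as pairs, which the labels do not state, called the same 2 members among 686 genes (5.41%). In 4 of the 7 renal markers tested the unadjusted p was also under 0.05 at 24 h, all lower and without overlap of the groups, with log2 fold changes of -1.46 (SE 0.26) for LHX1, -0.71 (SE 0.15) for KRT18, -0.62 (SE 0.17) for KRT8 and -0.27 (SE 0.11) for VIM, while PAX8 was at 0.33 (SE 0.22). None of them passed an adjusted p of 0.05 in the main test, and their part in the values of EGR1, IER2 and FOSL2 was not tested.

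EGR1 was at 42.4, 21.3 and 19.0 CPM in CTRL replicates 1 to 3, and at 6.99, 7.74 and 2.48 CPM in ODC. The highest treated library was thus below the lowest control. CTRL averaged 27.6 ± 12.9 CPM (SD, n = 3) and ODC 5.74 ± 2.85 CPM (SD, n = 3). The log2 fold change was -2.26 (SE 0.45), 0.208 of the control level, for an unadjusted p of 0.00102 and an adjusted p of 0.107 (edgeR). Omitting any single library kept it within -2.55 and -1.83. The adjusted p became 0.0385 when genes were kept from 1 count upward, and was 4.83e-06 with DESeq2, 2.04e-04 with the likelihood ratio test and 0.0110 in the paired fit, and up to 0.452 over the alternatives tried. EGR1 was the single member whose fitted fold change was at least 2-fold at 24 h.

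IER2 was at 47.1, 32.8 and 40.7 CPM in CTRL and at 24.8, 30.6 and 31.1 CPM in ODC. The gap between the groups was narrow, from 31.1 to 32.8 CPM. Its log2 fold change was -0.48 (SE 0.16), and its p of 0.0169 in edgeR's test was 0.274 after adjustment. MYC was at 283, 137 and 260.1 CPM in CTRL and at 237, 230.4 and 270.2 CPM in ODC. All treated values lay within the range of the controls, and the log2 fold change was 0.12 (SE 0.24, edgeR adjusted p = 0.889).

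FOSL2 was the FOS gene that separated the groups, at 152, 122 and 167 CPM in CTRL and at 186, 218 and 264 CPM in ODC. CTRL averaged 147 ± 22.6 CPM (SD, n = 3), and ODC averaged 223 ± 39.1 CPM (SD, n = 3). The log2 fold change was 0.60 (SE 0.16), for an unadjusted p of 0.00521 and an adjusted p of 0.182 (edgeR). Omitting any single library kept it within 0.47 and 0.72, and its adjusted p was 0.0262 with DESeq2, 0.0283 with the likelihood ratio test and 0.0282 in the paired fit, and reached 0.588 over the alternatives. FOSL1 overlapped between the groups, at 257, 101 and 259 CPM in CTRL and at 211, 152 and 283 CPM in ODC (log2 fold change 0.070, SE 0.36). FOS had between 8 and 39 counts per library, at 0.830, 0.524 and 0.557 CPM in CTRL and at 0.396, 0.487 and 1.89 CPM in ODC. FOSB was at 3.17, 1.57 and 2.898 CPM in CTRL and at 2.33, 1.68 and 6.70 CPM in ODC. In both genes 1 treated library, ODC replicate 3, was the highest of all. The log2 fold changes of FOS and FOSB were 0.54 (SE 0.61) and 0.49 (SE 0.52), and without ODC replicate 3 they were -0.53 and -0.34.

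The JUN genes overlapped between CTRL and ODC at 24 h. JUN was at 98.8, 78.6 and 107 CPM in CTRL and at 52.6, 73.8 and 134 CPM in ODC, so that treated libraries lay on both sides of the controls (log2 fold change -0.12, SE 0.31). JUNB was at 38.0, 46.5 and 36.7 CPM in CTRL and at 36.2, 59.8 and 42.4 CPM in ODC (log2 fold change 0.20, SE 0.19). JUND was at 14.7, 30.4 and 18.6 CPM in CTRL and at 18.7, 35.9 and 27.3 CPM in ODC, with a log2 fold change of 0.37 (SE 0.31, edgeR adjusted p = 0.704). Replicate 2 was the highest library of its group for JUND in both CTRL and ODC. JUND was higher in ODC in each of the 3 pairs of adjacent library numbers, and the paired fit gave a log2 fold change of 0.38 (SE 0.098, edgeR adjusted p = 0.0729).

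**Figure D3:**
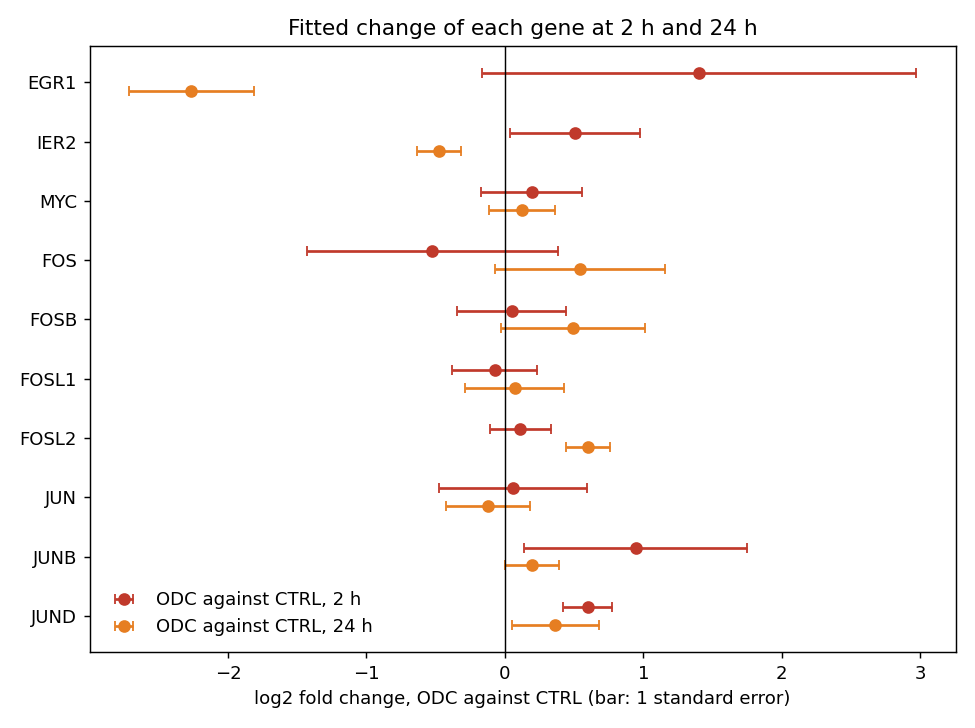
Fitted log2 fold change of ODC against CTRL for each gene at 2 h and at 24 h, with bars of 1 standard error. EGR1 was at 1.40 with a standard error of 1.57 at 2 h and at -2.26 with one of 0.45 at 24 h.

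Whether the effect of the drugs differed between the times was tested as a contrast over all 11 libraries. None of the 10 members passed an adjusted or an unadjusted p of 0.05 in edgeR's quasi-likelihood test, which 0.0150% and 5.93% of the 13333 genes did. The likelihood ratio test and DESeq2 called none of them either, although DESeq2 gave no p for EGR1, and the likelihood ratio test had 1 member at an unadjusted p under 0.05. EGR1 showed the largest difference, a log2 fold change lower by 3.70 at 24 h than at 2 h (-3.70, SE 1.90, unadjusted p = 0.0756, adjusted p = 0.894 from edgeR's test). Without CTRL replicate 1 of 2 h this difference was -7.09 (unadjusted p = 0.0169, adjusted p = 0.877 in edgeR's test), and without ODC replicate 2 of 2 h it was -0.27, the 2 ends of the range over omitted libraries. For IER2 the difference was -1.001 (SE 0.54) and for FOSL2 it was 0.47 (SE 0.30). JUND, with the smallest unadjusted p at 2 h, had a difference of -0.25 (SE 0.42). The libraries' names carry a different month for each time, so the time and the month of the libraries cannot be told apart in any change of level from 2 h to 24 h.

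Levels of different genes were compared as CPM per kb of the canonical transcript in GENCODE release 44. In each of the 4 groups FOSL1 ranked first and MYC second, and FOSB and FOS ranked ninth and last. In CTRL at 24 h, FOSL1 was at 121 ± 53.1 CPM per kb (SD, n = 3) and MYC at 61.0 ± 21.1 (SD, n = 3), followed by JUN at 29.1 ± 4.46, JUNB at 22.1 ± 2.92, FOSL2 at 21.9 ± 3.36 and IER2 at 19.1 ± 3.38. Next came JUND, from 7.62 to 15.7, and EGR1 at 8.79 ± 4.11, and at the end FOSB at 0.675 ± 0.227 and FOS at 0.303 ± 0.0797. Neighbours in this order overlapped in range, apart from MYC and JUN, EGR1 and FOSB, and FOSB and FOS. In CTRL at 2 h, FOSB lay above EGR1 in replicate 2 and below FOS in replicate 1. EGR1 ranked 5 in ODC at 2 h and 8 in the other 3 groups, and its level per kb in ODC was 17.9 ± 28.1 (SD, n = 3) at 2 h and 1.83 ± 0.907 (SD, n = 3) at 24 h. The rank at 2 h rested on ODC replicate 2, without which the level was 1.67 CPM per kb and the rank 8.

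FOSL1 and FOSL2 together made up most of the summed FOS and JUN family level. As a share of the sum over the 7 genes, in CPM per kb, they held 72.6% ± 5.48 (SD, n = 2) in CTRL and 64.3% ± 5.13 (SD, n = 3) in ODC at 2 h, and 67.3% ± 11.5 (SD, n = 3) in CTRL and 70.1% ± 7.42 (SD, n = 3) in ODC at 24 h. The ranges of CTRL and ODC overlapped at both times. FOS and FOSB did not exceed 1.54% and 1.22% of the sum in any library. FOSL2 alone held 10.9% ± 1.57 in CTRL and 14.7% ± 1.55 in ODC at 24 h, where its range in CTRL ended at 12.7% and that in ODC began at 13.7%. FOSL1 alone held 58.8% ± 4.49 in CTRL and 50.2% ± 3.01 in ODC at 2 h, where CTRL began at 55.6% and ODC ended at 53.6%, while at 24 h its ranges overlapped. JUNB took from 5.63% to 22.4% at 2 h, with the highest share in ODC replicate 2. These shares are given as a description, with no test.

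**Figure D4:**
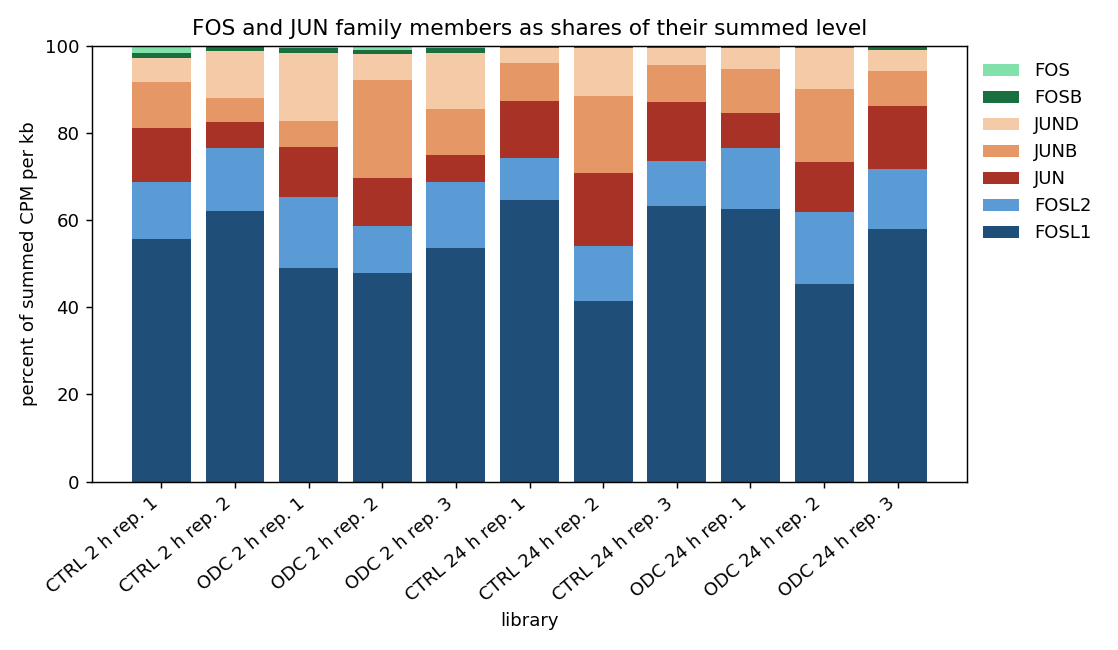
FOS and JUN family genes as percentages of their summed CPM per kb, stacked by library. FOSL1 was the largest part in each of the 11 libraries, and FOS and FOSB, at most 1.54% and 1.22%, form a thin band at the top.

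In the annotation (hg38, GENCODE release 44), FOS lies at chr14:75278826-75282230, FOSL2 at chr2:28392448-28417317, IER2 at chr19:13150411-13154911, JUNB at chr19:12791486-12793315 and FOSB at chr19:45467995-45475179, all on the plus strand. FOSL1 (chr11:65892049-65900573), JUN (chr1:58776845-58784048) and JUND (chr19:18279694-18281622) lie on the minus strand. For 7 of the 10 genes, the exons of the canonical transcript overlapped no exon of another gene in the annotation. Their other annotated exons were not compared. JUNB shared 259 bases of its canonical exons with HOOK2 and MYC 194 bases with CASC11. IER2 shared 946 bases with a gene that has no symbol in the tables. All of these partners lie on the strand opposite to the member. The library kit keeps the strand, but the strand setting of the read counting is not given in the sources used here, so reads of these partners may not be separated.

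Other genes around AP-1 were compared with lists written from general knowledge, with earlier results of these data known. None of the genes on these lists passed an adjusted p of 0.05 at either time in edgeR's quasi-likelihood test. Of 12 genes for AP-1 partner proteins, 9 were tested at 2 h with none at an unadjusted p under 0.05, and 8 at 24 h with 3. Of all genes, 2.34% passed that p at 2 h and 12.2% at 24 h. At 24 h the groups did not overlap in 17.9% of all genes. ATF3, a stress-induced partner of JUN, was at 10.5, 9.13 and 12.1 CPM in CTRL and at 22.5, 18.1 and 64.5 CPM in ODC at 24 h, each treated library above each control (log2 fold change 1.73, SE 0.45, edgeR adjusted p = 0.180). JDP2, a repressor of AP-1, was at -0.75 (SE 0.23) and every treated library was below every control. At 2 h the smallest p of this list belonged to BATF2 and MAFK, with log2 fold changes of 0.70 (SE 0.39) and 0.24 (SE 0.16). These were 0.93 and 0.14 without CTRL replicate 1.

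The list of other immediate early genes held 34 symbols. At 2 h 29 were tested, 18 of them higher and 11 lower (median log2 change 0.072, against -0.0060 over all genes). An unadjusted p under 0.05, which 2.34% of all genes had, was seen in 1. That gene was IER5L, at 4.26 and 5.46 CPM in CTRL and 7.47, 6.38 and 6.99 CPM in ODC (log2 fold change 0.50, SE 0.19). CSRNP1 followed with 0.50 (SE 0.22). They were at 0.35 and 0.51 without CTRL replicate 1, which left 1 CTRL library. In that fit 25 of 30 genes tested were higher and 5 lower (median 0.46, beside 0.011 over all genes). This list was not fitted without ODC replicate 2, so no direction at 2 h is drawn from these counts. At 24 h 28 were tested, 18 higher and 10 lower, with a median of 0.15 beside 0.00089 over all genes. Of these, 4 higher and 1 lower had an unadjusted p under 0.05, where 12.2% of all genes did. BTG2, an anti-proliferative gene that p53 also induces, was at 14.9, 18.8 and 23.3 CPM in CTRL and 50.4, 31.8 and 51.8 CPM in ODC. Its groups did not overlap, as in 17.9% of all genes (log2 fold change 1.23, SE 0.23, edgeR adjusted p = 0.0982). NR4A1, an orphan nuclear receptor gene, had a log2 fold change of 0.94 (SE 0.27, edgeR adjusted p = 0.215) at levels of at most 2.48 CPM.

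Upstream, 24 genes for kinases of the ERK, JNK and p38 routes and for the factors SRF, ELK, MRTF and CREB were listed. Of all genes, 2.34% had an unadjusted p under 0.05 at 2 h. Of the 24 tested here 1 did, MAP2K2, an activator of ERK (log2 fold change 0.21, SE 0.085), and MKL2 was next with -0.16 (SE 0.11). These were 0.22 and -0.18 when CTRL replicate 1 was left out, and no gene of the list had an unadjusted p under 0.05. At 24 h none of 23 did, with BRAF at 0.26 (SE 0.12) and MAPK8, which encodes JNK1, at -0.23 (SE 0.11). Among 16 target genes of AP-1, 12 were tested at 24 h, 6 higher and 6 lower. Of these, 3 had an unadjusted p under 0.05, all higher. That p was passed by 12.2% of all genes (1553, of which 913 were higher), and in 17.9% of all genes the groups did not overlap. IL6 was at 18.9, 23.3 and 43.3 CPM in CTRL and 78.6, 107 and 102 CPM in ODC, with no overlap (log2 fold change 1.75, SE 0.29, edgeR adjusted p = 0.0859). SPP1, which encodes osteopontin, was at 1.19 on the log2 scale (SE 0.36, edgeR adjusted p = 0.242). At 2 h none of the 14 targets tested had an unadjusted p under 0.05. IL6 was at 18.2 and 4.34 CPM in CTRL and 5.05, 58.0 and 6.85 CPM in ODC, again with ODC replicate 2 and CTRL replicate 1 as the highest libraries. Its log2 fold change at 2 h was 1.03 (SE 1.04), and 2.42 (SE 1.35) without CTRL replicate 1. In the fit without that library, which left 1 CTRL library, all 14 targets were above 0 (median 0.29, beside 0.011 over all genes). With it 10 were (median 0.044). Such an omission raises the values of genes that were high in that control. This list was not fitted without ODC replicate 2, so no direction at 2 h is drawn from these counts.

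Around MYC, 10 of the 11 partner genes were tested at 2 h and 9 at 24 h. None had an unadjusted p under 0.05, which 2.34% of all genes had at 2 h and 12.2% at 24 h. The smallest p belonged to MXD4 (0.22, SE 0.11) and MGA (-0.21, SE 0.11) at 2 h, and to MXD4 (0.33, SE 0.27) and MNT (0.12, SE 0.14) at 24 h. Of 27 MYC target genes, 26 were tested. At 2 h 11 were higher and 15 lower (median -0.026), none at an unadjusted p under 0.05, with BOP1 at 0.20 (SE 0.11) and NME1 at -0.20 (SE 0.11). Without CTRL replicate 1, which left 1 CTRL library, 4 targets were higher and 22 lower (median -0.084, beside 0.011 over all genes). In that fit BOP1 was at 0.071 and NME1 at -0.18, and of the partners MXD4 was at 0.31 and MGA at -0.31. The target list was not fitted without ODC replicate 2, so no direction at 2 h is drawn from these counts. At 24 h 10 were higher and 16 lower (median -0.040), and 2 had an unadjusted p under 0.05, where 12.2% of all genes did. SHMT2, an enzyme of serine metabolism, had a log2 fold change of -0.45 (SE 0.11, edgeR adjusted p = 0.173), and TFRC, the transferrin receptor gene, had 0.66 (SE 0.28, edgeR adjusted p = 0.400).

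Genes outside the 10 whose pattern was most like that of a member were found by Pearson's r of log2 CPM over the 11 libraries, after the mean of each time was subtracted, among 13323 genes. FOSL1 was nearest to DIEXF (r = 0.983), FOSL2 to FOXE1 (0.954), FOSB to DUSP1 (0.931) and FOS to NME2 (0.932). JUND was nearest to RAB11FIP3 (0.942), JUN to MCL1 (0.905) and JUNB to ELMSAN1 (0.908). EGR1 was nearest to PRR3 (0.940), IER2 to SNORA48 (0.928) and MYC to EIF1AD (0.940). Within the members FOS and JUN resembled each other most (0.934), followed by EGR1 and IER2 (0.871), and JUND reached at most 0.217 with any of them. The points share libraries and depth, and these values are a description. Each gene outside the 10 was picked as the highest of 13323 over 11 libraries. How high r would reach among unrelated genes was not tested, so no shared regulation is drawn from it.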

How the data were processed

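The 11 RNA libraries came from Caki-1-SR cells treated with ODC or kept as CTRL for 2 h or 24 h. The authors aligned the reads of stranded mRNA libraries to hg38 with STAR and counted them per gene with HTSeq 0.9.1, and deposited raw counts without normalization. The submitters' processing notes name STAR 2.7.0f and edgeR 3.26.8. The members and gene lists were chosen with earlier results of these data known.

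The deposited counts were fitted with edgeR 4.0.16 in R 4.3.3 (earlier quasi-likelihood method, TMM, filterByExpr at a count of 10 and a total of 15, two-sided, Benjamini-Hochberg adjustment over all genes tested) within each time, and over all 11 libraries for the difference between times. A fold change was called at an adjusted p under 0.05. Printed CPM were TMM-scaled over all 11 libraries. Replicates differed by more than sampling noise, with a chi-square of 18.7 to 58.0 per gene. Replicates were numbered within each group in the order of the labels. Library totals limit the precision of low genes such as FOS. All members were named, and from each other list the 2 genes of smallest p where none was called, of which 1 is not reported here. For each member, the gene with the highest correlation was named. COL3A1, DCN, LUM and EPCAM were named after their values were seen. Alternatives covered the filter, the scaling, the test (DESeq2 1.42.0 among them), a joint fit, each library left out and, at 24 h, pairs of adjacent library numbers, whose members deviated together from their groups (r = 0.20, 0.58 and 0.44). The tests were checked on simulated data, with changes put into genes drawn at random. That check does not show how often a change in a gene as variable as EGR1 would be found.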

Additional observations from a re-analysis of the deposited data

How the results depend on the processing

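The number of members called at an adjusted p under 0.05 stayed at 0 at 2 h in each of the 15 alternatives and for the difference between times in each of the 20. At 24 h it was 0 in the main test and in 13 alternatives, 1 when genes were kept from 1 count upward, and 2 each with DESeq2, the likelihood ratio test and the paired fit, which takes adjacent library numbers as a replicate block. Of all genes, these settings called 92 of 17624, and 378, 401 and 686 of 12689, against 24 in the main test. The cause of these differences was not tested. No member changed direction under another filter, scaling, test or joint fit. DESeq2 gave no p for the EGR1 difference, and the filter of more than 1 CPM left out FOS at 24 h. The direction depended on single libraries in 9 members at 2 h (all but JUND), in 6 at 24 h and in 7 for the difference. With each library left out in turn, log2 fold changes at 2 h ran as follows: EGR1 -2.02 to 4.81, FOS -1.44 to 2.61, FOSB -0.38 to 0.68, FOSL1 -0.35 to 0.25, FOSL2 -0.14 to 0.44, IER2 -0.0092 to 1.11, JUN -0.57 to 1.23, JUNB -0.18 to 1.99 and MYC -0.37 to 0.42. At 24 h they ran as FOS -0.53 to 0.91, FOSB -0.34 to 0.82, FOSL1 -0.26 to 0.27, JUN -0.58 to 0.14, JUNB -0.042 to 0.34 and MYC -0.14 to 0.30. The differences between times ran as FOS -2.07 to 1.97, FOSB -0.41 to 0.86, FOSL1 -0.20 to 0.41, JUN -1.36 to 0.43, JUNB -1.81 to 0.36, JUND -0.50 to 0.11 and MYC -0.35 to 0.48. Leaving out 1 of the 2 CTRL libraries at 2 h leaves a single one, which is assumed to vary like the treated libraries. The summed share of FOSL1 and FOSL2 moved by less than 1 SD in CPM without division by length and, chosen after the data were seen, with the union of all exons as length. The place of FOSL1 as the highest gene rests on the division by length. In CPM, FOSL2 averaged 131 against 124 for FOSL1 in ODC at 2 h, and 223 against 215 in ODC at 24 h. In both CTRL groups FOSL1 was above FOSL2. MYC averaged above FOSL1 at 24 h, at 227 against 206 in CTRL and 246 against 215 in ODC, and below it at 2 h. FOS, at 8 to 139 counts per library, is the member that depth limits most.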
